A study of Mus musculus with 6 samples.

Results

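The 50 genes described here are interferon-stimulated genes of the mouse that lie outside the Oas, Ifit, Gbp, Parp, p47 GTPase and antigen presentation families. They were chosen by symbol, as 50 of the 40803 genes of the count table. The rule used no measured value, but it was written with earlier results of these data known. Liver RNA was sequenced from 6 male C57BL/6J mice, 3 in the rAAV8-Scramble group and 3 in the rAAV8-Hnf1aos1 group, and each library came from 1 mouse. The mice were fed normally, and both groups received an AAV8 vector by tail vein that carried a U6-driven short hairpin RNA and a CAG-driven EGFP reporter. The hairpin had a scrambled sequence in one group and targeted Hnf1aos1, a long non-coding RNA of the liver, in the other. The mice were about 6 weeks old when assigned to the groups, and livers were taken 4 weeks after injection. No uninjected mice are analysed here, so a response to the vector itself cannot be seen, and in whole liver RNA a change in the number of cells of a type and a change in RNA per cell cannot be told apart.

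Interferons are secreted signals of infection. Type I and type III interferons bind their receptors, and the kinases Jak1 and Tyk2 then activate a complex that contains the transcription factor Irf9 and binds a promoter element called the interferon-stimulated response element (ISRE). Interferon gamma acts on gamma-activated sites (GAS). The genes switched on in this way restrict viral entry, replication and budding, sense foreign nucleic acid, or limit the response itself, and in liver both hepatocytes and Kupffer cells, the resident macrophages, can express them.

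The promoters of the members are shown first, as a description of the list. Most members were higher in the same group of mice, as described further on, and a link of that to the promoters was not tested. RefSeq promoters of GRCm38.p6, which run from 250 bases before to 50 bases after each annotated start, were matched by symbol for 40 of the 50 members. The letters GAAANNGAAA, or TTTCNNTTTC on the other strand, were taken as an ISRE match. Such a match occurred in 23 of the 40 members (57.5%), against 3.99% of the 27025 genes with a promoter and 3.44% of the 32851 promoters. The members were chosen as interferon-stimulated genes, so a high share was likely from the choice alone and is not a result about these livers. For the palindromic GAS letters TTCNNNGAA the share was 12.5% of members and 9.55% of all genes. The windows below were chosen to show matches shared within a family and, for Rsad2, Bst2 and Ddx60, in members with other roles, with each window 30 bases long, read 5′ to 3′ on the strand of the gene, and the matched letters in capitals.
Rsad2: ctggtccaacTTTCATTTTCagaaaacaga
Bst2: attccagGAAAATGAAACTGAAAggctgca
Trim30a: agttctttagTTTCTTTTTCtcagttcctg
Trim30d: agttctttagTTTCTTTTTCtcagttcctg
Slfn8: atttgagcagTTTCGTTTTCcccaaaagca
Slfn9: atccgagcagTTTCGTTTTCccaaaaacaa
Ifi203: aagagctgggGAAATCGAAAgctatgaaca
Ifi207: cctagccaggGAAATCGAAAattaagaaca
Ifi205: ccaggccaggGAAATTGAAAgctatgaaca
Ifi211: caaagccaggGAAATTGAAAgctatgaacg
Apol9a: gtgagacTTTCAGTTTCCATTTCccagttg
Apol9b: gtgagacTTTCAGTTTCCATTTCccagttg
Ddx60: gagcagaagaGAAACCGAAActatccttca
The window of Rsad2 lies at chr12:26456553-26456582 on the minus strand, and its match begins 120 bases before the start. In Bst2, at chr8:71537580-71537609 on the minus strand, a pair of matches overlap, and a GAS match overlaps the first letters of that run. Trim30a (chr7:104465210-104465239) and Trim30d (chr7:104507871-104507900), both on the minus strand, hold the same 30 letters. So do Apol9a on the minus strand (chr15:77411117-77411146) and Apol9b on the plus strand (chr15:77729028-77729057), each with an overlapping pair of matches. Slfn8 (chr11:83020839-83020868) and Slfn9 (chr11:82991856-82991885), on the minus strand, share their matched letters and the bases directly before them. All 4 Ifi200 windows lie on the minus strand of chromosome 1, at chr1:173942508-173942537 for Ifi203, chr1:173741831-173741860 for Ifi207, chr1:174031870-174031899 for Ifi205 and chr1:173913064-173913093 for Ifi211. Ddx60, at chr8:61928058-61928087 on the plus strand, has another match with the same letters further from its start. A match is a description of letters and not of binding, and sequences like these can recur in families that arose by duplication.

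**Figure D1:**
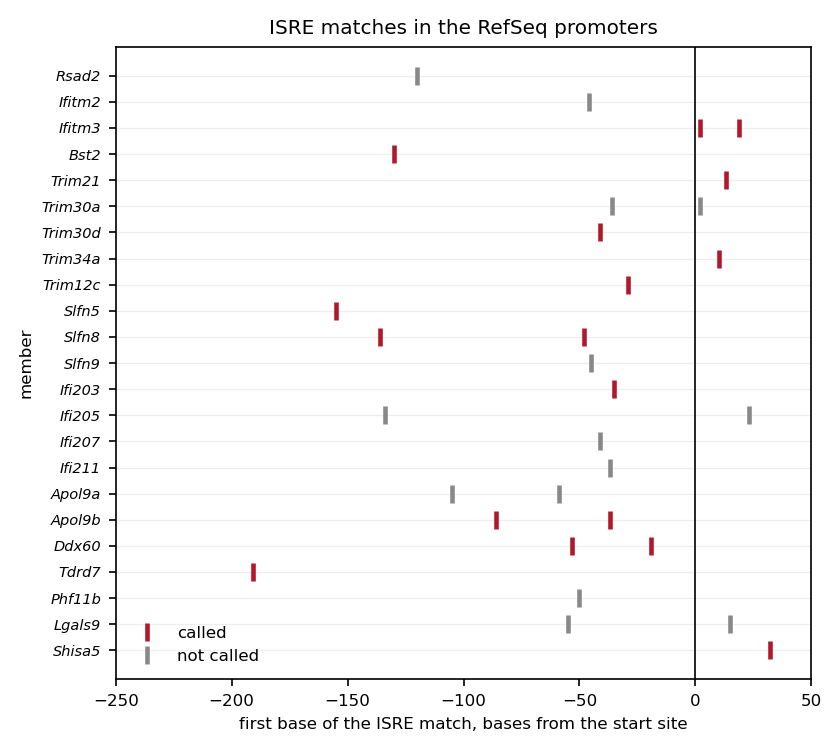
Positions of ISRE matches in the RefSeq promoters of the 23 members that have one. Each tick stands for a match, or an overlapping run of matches, in a promoter. A site shared by promoters of the same gene (Slfn8, Apol9a, Apol9b) is thus drawn more than once. The x axis gives the first base of the match in bases from the annotated start site, over the 250 bases before and 50 after it, the y axis gives the member, and red and grey ticks mark members called and not called in the expression test. Of the 31 ticks 15 lie within the 60 bases before the start, and members with and without a call are both among them.

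Reads assigned to genes came to 14704746 to 16532510 per scramble library and 18021614 to 19462398 per knockdown library. Counts below are normalized counts, which are scaled to the mean effective library size, and fold changes are of knockdown over scramble libraries with n = 3 per group. A gene was called, and is said to have risen or fallen, at an adjusted p under 0.05. Hnf1aos1 itself was measured at 512, 491 and 620 normalized counts in the scramble libraries and 278, 258 and 433 in the knockdown libraries, a log2 fold change of -0.74 ± 0.20 (SE). The groups did not overlap, but the adjusted p of 0.0625 missed the limit of 0.05. The labels were kept, and "knockdown" below stands for the library label rAAV8-Hnf1aos1.

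Most of the members were higher in the knockdown livers, and none was called lower. Of the 50 members 49 had enough counts to be tested, and 29 of these rose in edgeR's quasi-likelihood test (adjusted p under 0.05 by the Benjamini-Hochberg method) and 0 fell (0 also at an unadjusted p under 0.05 and 0 by DESeq2, which called 37 higher). Across all 16327 genes tested, 3.09% were called higher and 3.23% were called lower. The log2 fold change was above 0 for 48 of the 49 members, against 49.9% of all genes, and its median over the members was 0.94, from -0.06 for Ifitm1 to 3.12 for Ifi44, against -0.0004 over all genes. At an unadjusted p under 0.05 there were 42 members higher, against 12.0% of all genes. Every knockdown library lay above every scramble library for 42 members, against 15.2% of all genes. With 3 libraries against 3 the two-sided exact permutation test cannot give less than 0.1, and it gave 0.1 for those 42. With library sizes taken from the ERCC spike-ins instead, which raises the median of all genes by 0.20, 43 members and 18.6% of all genes were called higher. A log2 fold change above 1 in addition to the adjusted p was reached by 12 members, against 0.784% of all genes. The calls depended on single libraries: of the 29 called members, 18 were called again without knockdown replicate 1, 15 without knockdown replicate 2, 29 without knockdown replicate 3, 25 without scramble replicate 1, 16 without scramble replicate 2 and 3 without scramble replicate 3. Those 3 were Bst2, Trim12c and Slfn8, and they were also the members called in each of the 6 fits that leave out 1 library. The share of all genes called higher varied as well, from 0.228% (without scramble replicate 3) to 6.06% (without knockdown replicate 3). Without scramble replicate 3, 40 of the 49 members still had an unadjusted p under 0.05. The median log2 fold change of the members stayed between 0.85 and 1.09 in those fits.

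**Figure D2:**
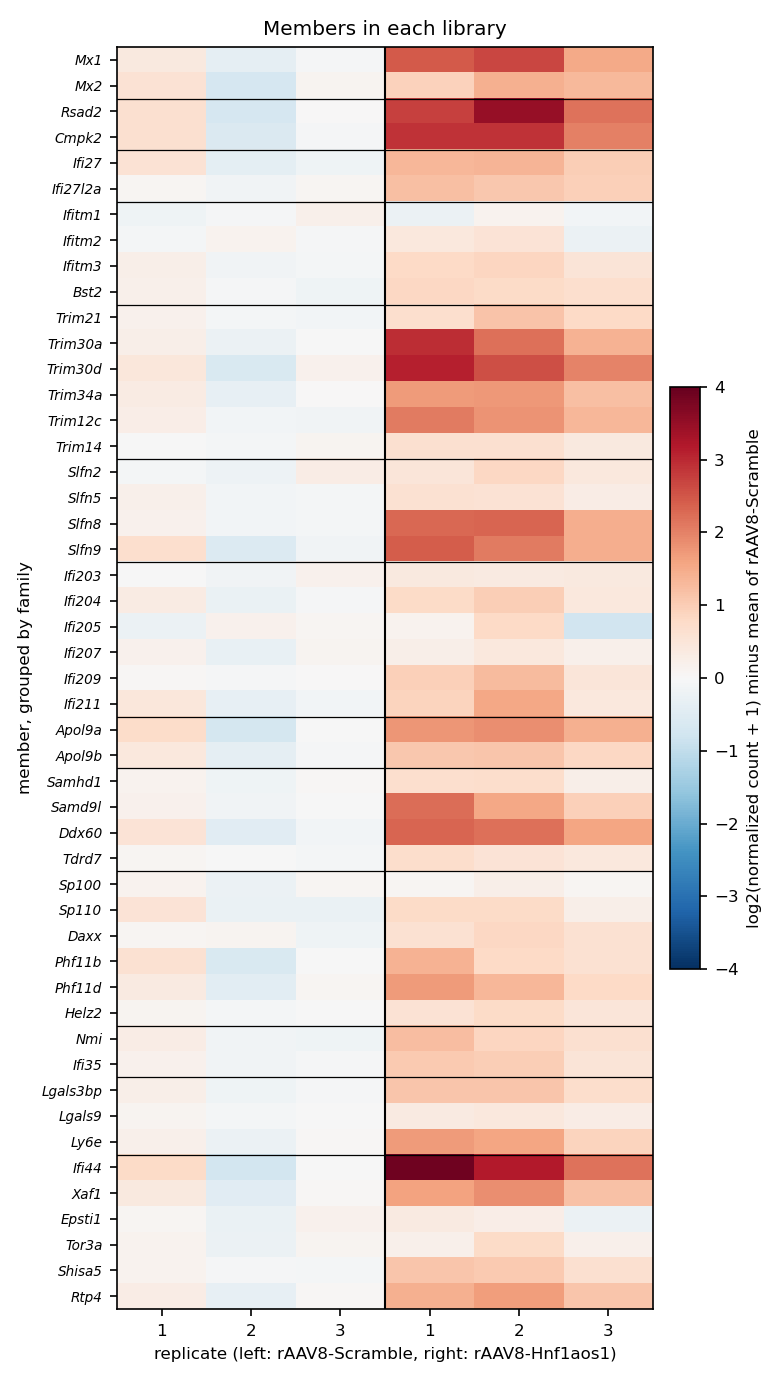
Level of the 49 tested members in each of the 6 libraries. Each row is a member, grouped by family between black lines, each column a library, and colour gives log2(normalized count + 1) minus the mean of the 3 rAAV8-Scramble libraries, red for higher and blue for lower. The knockdown columns are red for nearly every member, with replicate 3 paler than replicates 1 and 2, and within the scramble group replicate 1 is redder and replicate 2 bluer.

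The members also shared an order of libraries inside each group. Scramble replicate 1 was the highest scramble library for 41 of the 49 members and scramble replicate 2 the lowest for 39, where over all genes each library was the highest or the lowest of its group in 29.0% to 36.0% of genes. Among the knockdown libraries, replicate 3 was the lowest for 43 members and the highest for 0. Against the scramble mean, the median member stood at 0.21, -0.22 and -0.02 on the log2 scale in scramble replicates 1, 2 and 3, and at 1.05, 1.08 and 0.65 in knockdown replicates 1, 2 and 3. Knockdown replicate 3 was also the knockdown library with the most Hnf1aos1, and a relation between these values was not tested.

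Mx1 and Mx2 encode dynamin-like GTPases that trap incoming virus particles, and both genes are defective in many laboratory strains. Mx1 stood at 43.1, 25.2 and 31.9 normalized counts in the scramble libraries and 184, 214 and 96 in the knockdown libraries. The groups were far apart, with a 4.89-fold difference (log2 fold change 2.29 ± 0.33, adjusted p = 0.00766). Mx2 had 273, 114 and 200 against 349, 496 and 455 counts, and its log2 fold change of 1.14 ± 0.31 did not pass the test (adjusted p = 0.086). It was called by DESeq2 (adjusted p = 0.000106) and by limma's voom (adjusted p = 0.0303). Scramble replicate 1, at 273, came near the lowest knockdown library, at 349.

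Rsad2 encodes viperin, a radical enzyme that makes a chain-terminating nucleotide, and Cmpk2, its neighbour on chromosome 12, encodes a mitochondrial nucleotide kinase. Both had log2 fold changes above 2. Rsad2 had 786, 314 and 504 counts in the scramble group and 3324, 5636 and 2239 in the knockdown group (6.97-fold, log2 fold change 2.80 ± 0.54, adjusted p = 0.0607). Cmpk2 had 386, 164 and 238 against 1843, 1838 and 991 (5.92-fold, 2.57 ± 0.43 on the log2 scale, adjusted p = 0.0424). The fold change of Rsad2 was the larger, yet Cmpk2 was called and Rsad2 was not. Scramble libraries of Rsad2 ran from 314 to 786 and knockdown libraries from 2239 to 5636. For Cmpk2 these ranges were 164 to 386 and 991 to 1843. DESeq2 and limma's voom called both genes. The Cmpk2 call did not remain without knockdown replicate 1 or 2 or scramble replicate 2 or 3. Ifi44, a cytosolic antiviral protein, stood apart in the same way, with 192, 68.1 and 111 against 1689, 1031 and 515 counts. It had the largest log2 fold change of all members, 3.12 ± 0.65, and was not called (adjusted p = 0.073), although DESeq2 called it. In all, 9 members with a log2 fold change above 1 were not called by edgeR's test, 8 of which DESeq2 called, and 17 members with a smaller one were called. Limma's voom called the same 8 (Mx2, Rsad2, Ifi27, Trim30a, Slfn9, Apol9a, Samd9l and Ifi44), and neither called Ifi211.

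**Figure D3:**
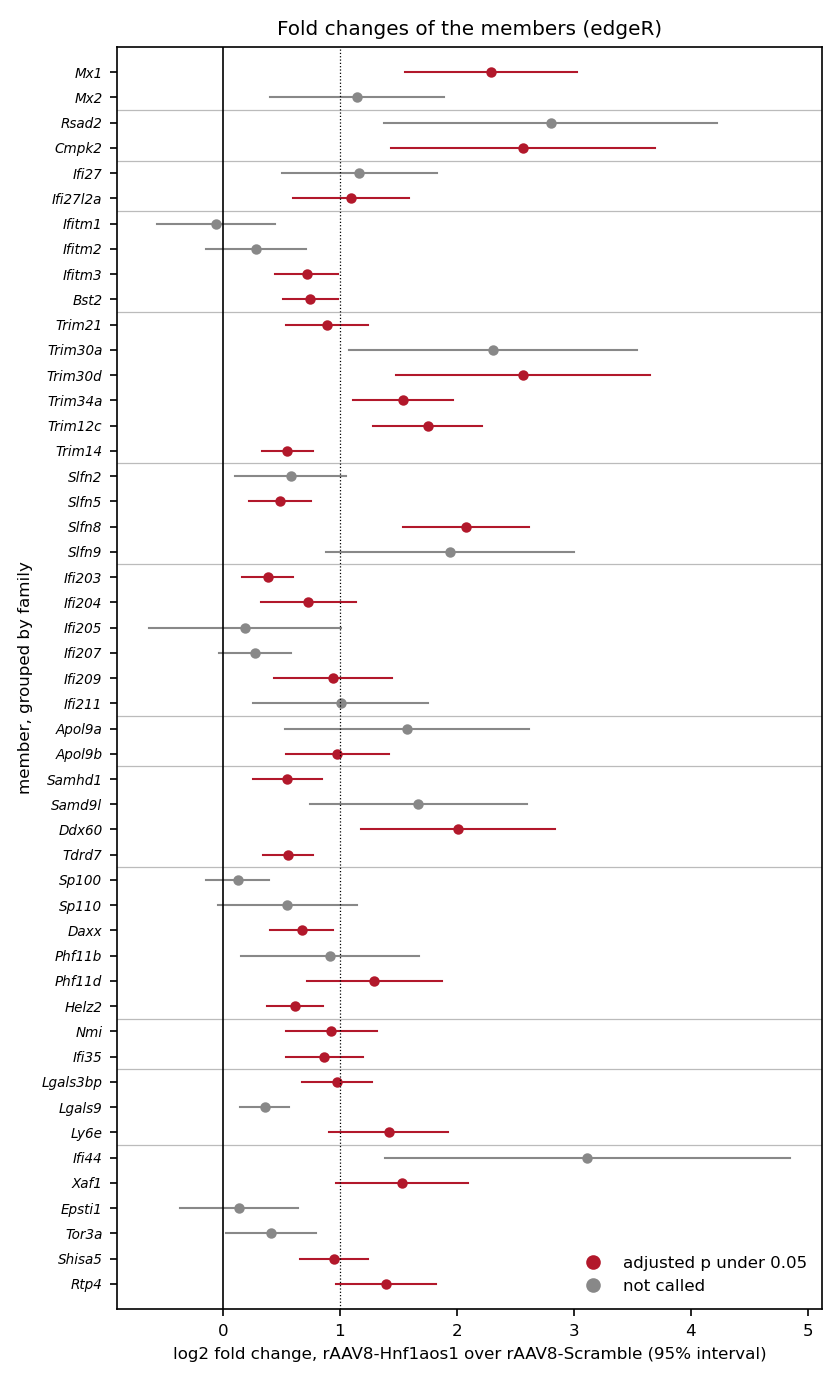
Log2 fold change of each tested member, rAAV8-Hnf1aos1 over rAAV8-Scramble, with 3 libraries per group. Points are edgeR estimates and lines their 95% intervals, red for members with an adjusted p under 0.05 and grey for the others, with horizontal lines between families, a solid line at 0 and a dotted line at 1. Long intervals accompany several of the largest values, among them Ifi44 and Rsad2, and Ifitm1 is the member below 0, which turned to 0.14 with spike-in library sizes.

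The Ifitm proteins sit in cell and endosome membranes and hinder viral fusion, and tetherin, the product of Bst2, holds budding virions at the cell surface. Here 2 of 4 members rose, and the family median was 0.50. Ifitm3 had 3304, 2545 and 2703 counts in the scramble libraries and 4907, 5094 and 4039 in the knockdown libraries (log2 fold change 0.71 ± 0.12, adjusted p = 0.0105). Bst2 had 1016, 852 and 776 against 1546, 1500 and 1397 (0.75 ± 0.11, adjusted p = 0.00424), with little spread inside either group. Both changes were smaller than that of Rsad2 and had smaller standard errors. Ifitm1 had 41, 45 and 52.8 against 39.1, 51.3 and 42.6 counts, and its 95% interval ran from -0.57 to 0.44. Its direction was not fixed, since the log2 fold change of -0.06 became 0.14 with spike-in library sizes. Ifitm2 had 1414, 1640 and 1443 against 1991, 2199 and 1284 (0.28 ± 0.19, adjusted p = 0.399), with knockdown replicate 3 below all scramble libraries. Ifitm2 is read with care, since 40.9% of its exonic bases overlap another annotated gene on the same strand and 34.9% of its stretches of 100 bases recur in other genes. The 3 Ifitm genes lie within 55934 bases of chromosome 7.

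Trim proteins are ubiquitin ligases and adaptors of innate immunity, and 5 of the 6 measured rose, with a family median of 1.64. Trim30a, described as a brake on Toll-like receptor signalling, had 277, 201 and 231 counts against 1824, 1080 and 610. Its neighbour Trim30d had 246, 119 and 205 against 1568, 1086 and 716. Both were highest in knockdown replicate 1, lower in replicate 2 and lowest of that group in replicate 3, and the groups did not overlap. Trim30d was called (2.56 ± 0.42, adjusted p = 0.039), whereas Trim30a was not (2.31 ± 0.47, adjusted p = 0.0656). Trim12c, a relative of the retroviral restriction factor TRIM5 of primates, had 240, 183 and 180 against 845, 692 and 499 counts (1.75 ± 0.20, adjusted p = 0.00415). Trim34a had 212, 134 and 169 against 549, 563 and 389 (1.54 ± 0.19, adjusted p = 0.00392), and 22.6% of its 100-base stretches are shared with Trim34b. These 4 genes lie within 263393 bases of chromosome 7. Trim21, a cytosolic antibody receptor, had 122, 102 and 100 against 174, 239 and 189 (0.89 ± 0.16, adjusted p = 0.0113). Trim14, an adaptor at mitochondria for RNA sensing, had 768, 739 and 839 against 1213, 1207 and 1020 (0.55 ± 0.10, adjusted p = 0.0111), and 38.0% of its exonic bases overlap genes on the opposite strand. The 4 clustered genes had log2 fold changes of 1.54 to 2.56, against 0.89 for Trim21 and 0.55 for Trim14, a difference that was not tested.

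Schlafens are interferon-induced proteins that act on cell growth and on RNA, and the 4 measured here differed in size of change. Slfn8 had 96.4, 79 and 80.3 counts against 417, 432 and 235 (4.23-fold, 2.08 ± 0.24 on the log2 scale, adjusted p = 0.00361). Slfn9 had 275, 117 and 155 against 918, 722 and 472, a log2 fold change of 1.94 ± 0.41 that was not called (adjusted p = 0.0656). Its groups did not overlap, but scramble replicate 1 stood well above the other scramble libraries. Slfn5 moved less and was called, with 419, 337 and 350 against 559, 545 and 448 (0.49 ± 0.12, adjusted p = 0.039), although its call was lost with voom (adjusted p = 0.0542) and remained in 2 of the 6 fits that leave out a library. Slfn2, known for keeping T cells quiescent, had 49.2, 45 and 63.8 against 73.4, 93.1 and 69.7 (0.58 ± 0.22, adjusted p = 0.133). The median of the 4 was 1.26, with 2 called.

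PYHIN proteins bind DNA through their HIN domain, and Ifi204 can pass the presence of foreign DNA on to Sting. The 6 measured members lie within 400894 bases of chromosome 1, in the Ifi200 cluster, and had a median of 0.56, with 3 called. Ifi204 had 183, 121 and 141 counts against 250, 292 and 197 (0.73 ± 0.18, adjusted p = 0.0414). Ifi209 had 47.2, 45 and 46.2 against 89.6, 112 and 65.2 (0.94 ± 0.23, adjusted p = 0.0371). Ifi203 had 456, 416 and 515 against 610, 592 and 606 (0.38 ± 0.10, adjusted p = 0.045), the smallest change of any called member. With limma's voom all 3 genes missed the limit, at adjusted p = 0.0529 for Ifi203, 0.0587 for Ifi204 and 0.0646 for Ifi209, and with DESeq2 Ifi203 missed it too (adjusted p = 0.0616). The calls of Ifi203 and Ifi209 remained in 1 of the 6 fits that leave out a library and that of Ifi204 in 2. Ifi207 did not overlap between groups but was not called, with 253, 183 and 240 against 262, 302 and 255 (0.27 ± 0.14, adjusted p = 0.266). Ifi211 had 32.8, 18.7 and 22 against 44.8, 71.3 and 32.6 (1.01 ± 0.34, adjusted p = 0.104). For Ifi205 the counts were 23.6, 31.8 and 29.7 against 31.5, 49.4 and 16.3, with knockdown replicate 3 the lowest of all 6 libraries and an interval from -0.63 to 1.01. Ifi211 shares 56.9% of its 100-base stretches with relatives such as Ifi205 and Ifi204, so uniquely mapped reads see less than its full length, and Ifi209 (17.9%) and Ifi204 (16.8%) share part of theirs too.

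**Figure D4:**
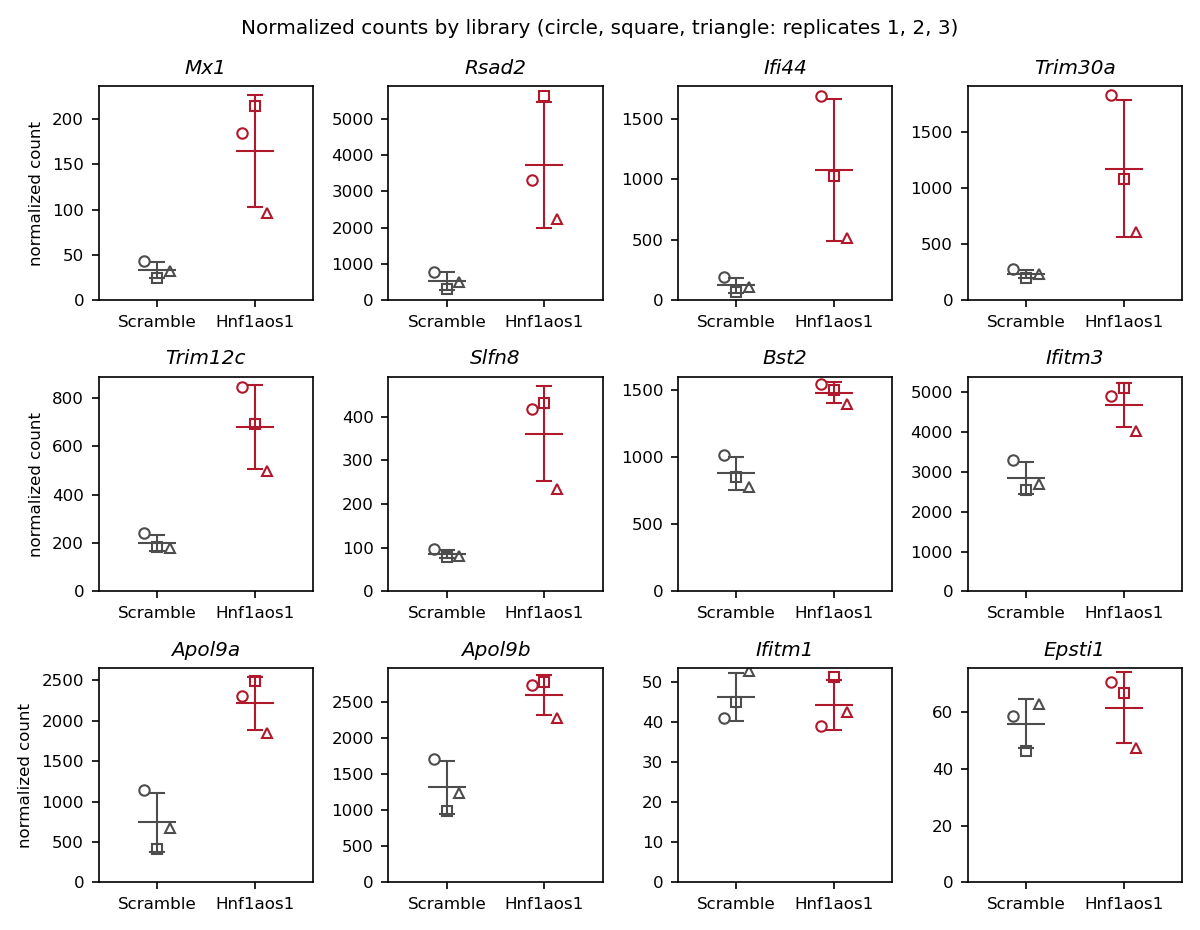
Normalized counts of 12 members in the 6 libraries, as points for the replicates with the mean and SD of 3 libraries per group. Each panel is a gene, the x axis gives the group (Scramble, rAAV8-Scramble, and Hnf1aos1, rAAV8-Hnf1aos1) and the y axis the normalized count from 0. Mx1, Rsad2, Ifi44 and Trim30a are higher with a wide spread in the knockdown group, Bst2 and Ifitm3 are higher by less with a narrow one, and the groups overlap for Ifitm1 and Epsti1.

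Apol9a and Apol9b encode mouse apolipoproteins L, intracellular relatives of a secreted trypanosome-killing factor of primates. The study itself followed both on these livers and reports both as upregulated, so they are not an independent choice. Apol9b had 1718, 997 and 1244 counts against 2735, 2788 and 2283 (0.98 ± 0.19, adjusted p = 0.028). Apol9a had 1139, 416 and 673 against 2303, 2494 and 1851, a larger log2 fold change of 1.58 ± 0.40 that was not called (adjusted p = 0.0991). It was called by DESeq2 (adjusted p = 0.00656) and by limma's voom (adjusted p = 0.0148). In both genes scramble replicate 1 was the highest and scramble replicate 2 the lowest of their group, and no library crossed over. The 2 genes are close copies, and 34.9% of the 100-base stretches of Apol9b occur in Apol9a, so their counts are not fully separate measurements. Apol6 was barely detected, with 0 to 2 reads per library, and was not tested.

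Among members grouped here as nucleic acid and nucleotide factors, 3 of 4 rose and the median was 1.11. Ddx60, a helicase that assists RNA sensing, had 610, 308 and 389 counts against 2098, 1917 and 1260 (4.02-fold, 2.01 ± 0.33 on the log2 scale, adjusted p = 0.0335). Samd9l, a restrictor of poxviruses, had 529, 426 and 465 against 2241, 1373 and 909, and at 1.67 ± 0.36 it was not called (adjusted p = 0.067). Its knockdown libraries differed widely, from 909 to 2241, while its scramble libraries lay close together. Samhd1, which degrades deoxynucleotides, had 507, 408 and 483 against 747, 753 and 550 (0.55 ± 0.13, adjusted p = 0.0383). Its call was lost with voom (adjusted p = 0.0576) and remained in 1 of the 6 fits that leave out a library. Tdrd7, a Tudor domain protein, had 685, 648 and 617 against 1059, 944 and 868 (0.56 ± 0.10, adjusted p = 0.0108). All 4 genes were higher in each knockdown library than in any scramble library.

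Of the 6 nuclear factors 3 rose, with a median of 0.64. Helz2, a helicase that coactivates nuclear receptors, had 5286, 4612 and 4828 against 7376, 8385 and 6804 (0.62 ± 0.11, adjusted p = 0.0106). Daxx, a histone chaperone of nuclear bodies, had 228, 229 and 189 against 326, 378 and 326 (0.67 ± 0.12, adjusted p = 0.0114). Phf11d had 73.9, 42.8 and 60.5 against 189, 146 and 101 (1.29 ± 0.26, adjusted p = 0.0205). The groups of all 3 were apart. Phf11b, next to Phf11d, had few reads, with 33.9, 14.3 and 22 against 60.1, 39 and 34.4 normalized counts (0.92 ± 0.35, adjusted p = 0.14). Sp100 and Sp110 encode further proteins of nuclear bodies, and both overlapped between groups. Sp100 had 357, 271 and 342 against 339, 379 and 341, with an interval of the log2 fold change from -0.14 to 0.40. Sp110 had 70.8, 39.5 and 39.6 against 83, 81.7 and 56.2, with an interval from -0.04 to 1.15, and 27.7% of its 100-base stretches occur elsewhere.

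Nmi and Ifi35 form a complex with each other and can be released as danger signals, and both rose. Nmi had 165, 123 and 121 counts against 318, 248 and 213 (0.92 ± 0.18, adjusted p = 0.0149). Ifi35 had 356, 288 and 309 against 658, 632 and 448 (0.87 ± 0.15, adjusted p = 0.0111), and 16.8% of its exonic bases overlap a gene on the opposite strand. Their changes were of similar size, with knockdown replicate 1 the highest and replicate 3 the lowest library for both. Secreted and surface proteins rose in 2 of 3 cases. Ly6e, a surface protein that limits coronavirus entry, had 3767, 2753 and 3370 against 10552, 9820 and 6050 counts (1.42 ± 0.22, adjusted p = 0.0141). Lgals3bp, a secreted ligand of galectins, had 1281, 967 and 1069 against 2390, 2354 and 1790 (0.98 ± 0.14, adjusted p = 0.00465). Lgals9, the ligand galectin-9, had 7184, 6253 and 6613 against 8613, 8843 and 8204, and its small but separate change of 0.36 ± 0.10 missed the limit (adjusted p = 0.0522).

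The Ifi27 proteins are small hydrophobic membrane proteins encoded 1927 bases apart on chromosome 12. Ifi27 had 1117, 572 and 665 counts against 1885, 1914 and 1488 (1.17 ± 0.27, adjusted p = 0.0649). Ifi27l2a, with counts of 29.8, 25.2 and 29.7 against 65.8, 60.8 and 55.2, had a change of 1.10 ± 0.23 and was called (adjusted p = 0.02). Neighbours with nearly the same fold change thus fell on either side of the limit. Of the remaining members, Rtp4, a Golgi chaperone of opioid receptors, had 468, 304 and 392 against 1016, 1226 and 822 (1.40 ± 0.19, adjusted p = 0.00799). Xaf1, a binding partner of the apoptosis inhibitor Xiap, had 260, 145 and 205 against 602, 715 and 448 (1.53 ± 0.24, adjusted p = 0.0166). Shisa5, a membrane protein of the endoplasmic reticulum, had 380, 331 and 324 against 749, 715 and 536 (0.95 ± 0.13, adjusted p = 0.00381). All 3 rose with no overlap between groups. Tor3a, a torsin ATPase, had 285, 218 and 276 against 295, 442 and 299 (0.41 ± 0.17, adjusted p = 0.188), where only knockdown replicate 2 stood clearly above the scramble libraries. Epsti1 had 58.5, 46.1 and 62.7 against 70.6, 66.5 and 47.1, and its interval ran from -0.37 to 0.64.

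Levels were compared between members in TPM, which divides by gene length. Ifitm3 was the highest member in both groups, at 657, 501 and 562 TPM in the scramble libraries and 972, 949 and 759 in the knockdown libraries. Lgals9 took place 2, at 584, 503 and 561 against 697, 673 and 630 TPM. The top of the order changed little, since Bst2, Ly6e, Ifitm2, Ifi27 and Apol9b took places 3 to 7 in the scramble group and the same places in another order in the knockdown group. Lower down, Ifi44 moved from place 35 to 14 (where it had 74.9, 43.0 and 21.7 TPM), Cmpk2 from 21 to 12 and Rsad2 from 13 to 8. The summed level of the 50 members was 1870 to 2421 TPM in the scramble libraries and 2997 to 4086 TPM in the knockdown libraries.

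Members were also set out by the letters in their promoters. Of the 23 members with an ISRE match 13 were called, with a median log2 fold change of 0.95, and of the 17 with a promoter and no match 10 were called, with a median of 0.87. Ifi44 and Cmpk2, with some of the largest values, held no match in this window, whereas Ifi205, whose groups overlapped, held matches. A missing match says only that the letters are absent from these 300 bases. Of the 9 tested members without a promoter entry 6 were called, with a median of 1.14.

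Some of the genes that carry the interferon signal rose too. Of the 31 listed 22 were tested, and edgeR's test called 5 higher, against 3.09% of all genes, and 0 lower. The median log2 fold change was 0.26. At an unadjusted p under 0.05 there were 11 higher, against 12.0% of all genes, and 1 lower (Ifnk), and DESeq2 called 8 higher and 0 lower. Among 9 interferon genes, 7 (Ifnb1, Ifna1, Ifna2, Ifna4, Ifnl2, Ifnl3 and Ifne) had 0 reads in every library, which allows up to 3 reads per library, and Ifng had 4 reads in 1 knockdown library and 1 read in 1 scramble library. Ifnk had 69.8, 57.1 and 78.1 normalized counts against 51.5, 51.3 and 34.4 (-0.58 ± 0.23, adjusted p = 0.163). Of the receptors and kinases, 1 of 8 tested rose: Ifngr2, a chain of the interferon gamma receptor, had 231, 285 and 236 against 521, 521 and 333 (0.87 ± 0.18, adjusted p = 0.0233). The type I receptor gene Ifnar1 changed by 0.21 ± 0.088 (adjusted p = 0.169). Irf9 had 796, 602 and 685 against 1002, 1145 and 931 (0.56 ± 0.12, adjusted p = 0.0217). Stat2, at 0.31 ± 0.10, was not called (adjusted p = 0.0927), nor was Irf7, which drives interferon genes, at 1.62 ± 0.36 (adjusted p = 0.0696). Of the 9 transcription factors tested 2 were called higher and 0 lower. The groups overlapped for Irf5 (log2 fold change 0.47), Irf1 (0.08), Irf8 (0.07), Irf3 (-0.02) and Irf2 (-0.15), and none of these was called.

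Isg15, listed beside the feedback inhibitors Usp18 and Socs3, had the largest fold change of the pathway list. Usp18, which removes Isg15 from proteins and shields the type I receptor, had 394, 179 and 243 counts against 1377, 1266 and 831 (2.09 ± 0.36, adjusted p = 0.039). Socs3, an inhibitor of cytokine receptors that also answers to interleukin-6, had 57.5, 51.6 and 59.4 against 130, 325 and 272 (2.11 ± 0.34, adjusted p = 0.0169). Knockdown replicate 1 was the lowest of its group for Socs3, where most members had replicate 3 lowest. Isg15 went from 234, 84.5 and 135 to 2604, 1858 and 873, a log2 fold change of 3.55 ± 0.62 at an adjusted p of 0.0519. Without scramble replicate 3 edgeR's test called 0 of the pathway genes (10 higher and 0 lower at an unadjusted p under 0.05), 1 without either scramble replicate 2 or knockdown replicate 2, 2 without knockdown replicate 1 and 9 without knockdown replicate 3. The share of all genes called higher varied too, from 0.228% without scramble replicate 3 to 6.06% without knockdown replicate 3.

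Markers of other cells moved with the members in part. Of 11 Kupffer cell and macrophage markers 4 were called higher (Adgre1, Clec4f, C1qa and C1qb), against 3.09% of all genes, and 0 lower. Every knockdown library lay above every scramble library for 10, against 15.2% of all genes, and the median log2 fold change was 0.45. Calls remained in 1 of the 6 fits that leave out a library for Adgre1 and C1qb, and in 2 for Clec4f and C1qa. Adgre1 and C1qb missed the limit with voom (adjusted p = 0.0612 and 0.0731). DESeq2 called 5 of the 11, but not Adgre1 (adjusted p = 0.0748). The 11 markers summed to 3852 to 4576 normalized counts in the scramble libraries and 4862 to 6296 in the knockdown libraries. Lists for T cells, NK cells, B cells, monocytes and neutrophils, sinusoidal endothelial cells, stellate cells, cholangiocytes and all leukocytes held 0 genes called by edgeR's test or by DESeq2, and 3 genes at an unadjusted p under 0.05 (Cd4 higher, Prf1 and Des lower). Several of these genes had too few reads to be tested, so that a call was possible for only 3 of 9 monocyte and neutrophil markers, 1 of 6 NK cell markers, 4 of 6 T cell markers and 4 of 5 cholangiocyte markers. The summed level of the 6 T cell markers was 74.9 to 129 against 107 to 145 normalized counts. S100a8 and S100a9, calcium-binding proteins of neutrophils and monocytes, were among the untested genes. S100a8 had 1, 1 and 2 reads in the scramble libraries and 7, 11 and 4 in the knockdown libraries, and S100a9 had 2, 1 and 0 against 12, 9 and 6. Both were low but higher in every knockdown library, while the neutrophil marker Ly6g had 0 reads in all 6 libraries. The 5 cholangiocyte markers summed to 578 to 688 against 833 to 2542 normalized counts, and among them Spp1 had 319, 282 and 293 against 2161, 426 and 513 and was not called (1.79 ± 0.79 on the log2 scale, adjusted p = 0.274). The groups overlapped for Krt7, Krt19, Epcam and Sox9. Mean counts were lower in the knockdown group for Krt7 (7.62 against 5.63) and Krt19 (20.5 against 10.1). They were higher for Epcam (28.5 against 36.3) and Sox9 (286 against 345). Of 4 genes listed for plasmacytoid dendritic cells, Ccr9 was called lower and the defining marker Siglech had 17.4, 14.3 and 16.5 against 15.3, 20.9 and 19.9. Of 8 hepatocyte markers, present in all 6 libraries, 1 was called higher (Fgb, a fibrinogen chain) and 1 lower (Tat). Over all genes 3.09% were called higher and 3.23% lower. DESeq2 called 4 of the 8, with Apoa1 (adjusted p = 0.00674) and Apob (adjusted p = 0.0243) higher beside Fgb and Tat. The part of these cell types in the change of the members was not tested.

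How many members were called depended on the fit, and so did the share of all genes called higher. DESeq2 called 37 members, against 3.88% of all genes, and limma's voom 33, against 2.66%. With library totals alone there were 25 members and 1.95% of all genes, without a filter 28 and 3.16%, and with a minimum mean of 50 counts 25 of 44 members and 3.11%. Leaving out 1 library gave 20 members and 1.75% (without knockdown replicate 1), 15 and 0.836% (knockdown replicate 2), 36 and 6.06% (knockdown replicate 3), 29 and 1.59% (scramble replicate 1), 17 and 1.01% (scramble replicate 2) and 3 and 0.228% (scramble replicate 3). In each of these fits the called members were higher in the knockdown group. Without a filter on low counts Cmpk2, Trim30d, Ddx60 and Ly6e lost their calls, at adjusted p = 0.0578, 0.0549, 0.0605 and 0.0512. The test against a log2 fold change of 1 called 0 members and 0.00% of all genes higher, with 17 members at an unadjusted p under 0.05.

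**Figure D5:**
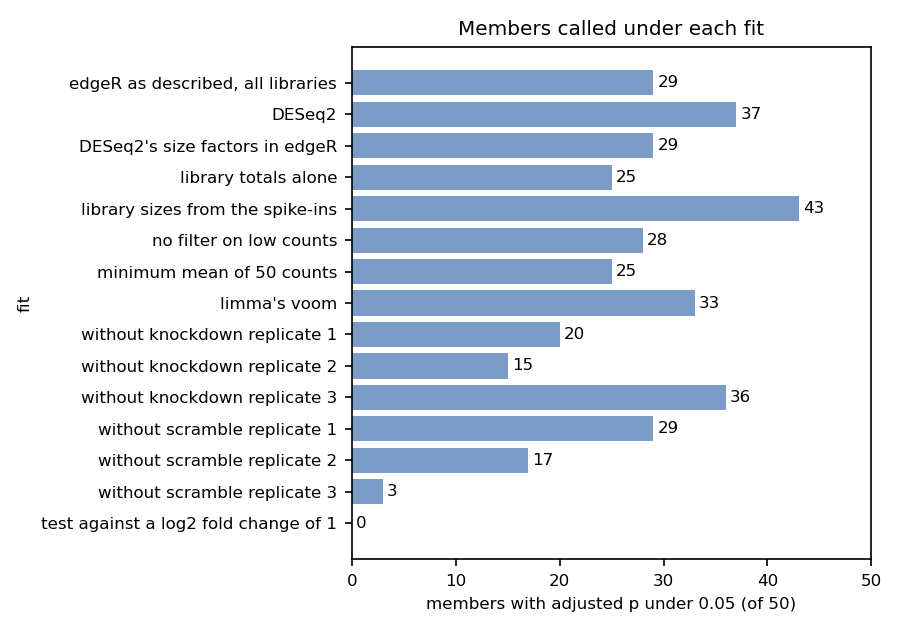
Number of members with an adjusted p under 0.05 in each fit. Bars give the count on the x axis, out of 50 members, for each fit named on the y axis. The fit described in the text called 29, the alternatives with all 6 libraries and a test against no change called 25 to 43, the fits without 1 library called 3 to 36, and the test against a log2 fold change of 1 called 0.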

How the data were processed

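Liver RNA of 6 mice was sequenced, 3 per group, and each sample was assigned to its group by its title. According to the study's methods, the authors used Trimmomatic for trimming, STAR for alignment to GRCm38 and featureCounts for the deposited raw counts, whole numbers of reads that mapped once and fell in exons. The labels name GRCm39 as the build, and describe depletion of ribosomal RNA where the methods describe poly(A) selection. The strand setting of the counting is not given in the sources used here, so reads of genes that overlap on opposite strands may be mixed. The authors also deposited TPM values, used here only to compare levels between genes. A deposited table of the authors' comparison (fold changes and p-values) and scaled counts were not used.

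Spike-ins (92 ERCC rows, 1.18% to 1.52% of counts) entered neither the library sizes nor the tests. Groups were compared by robust quasi-likelihood fits of edgeR 4.0.16 (R 4.3.3) after TMM scaling and the default filterByExpr, and p-values were adjusted over all 16327 genes by the Benjamini-Hochberg method. Calls required an adjusted p under 0.05 and, where stated, also a log2 fold change above 1. Normalized counts are counts scaled to the mean effective library size. Alternatives used DESeq2 1.42.0, limma 3.58.1 (voom), other library sizes, other filters and each library left out. Simulated data with 200 genes changed 4-fold were tested first: edgeR recovered 95.5% of them, and 7.70% of its calls were of unchanged genes. That share was above the adjusted p limit of 0.05. Recovery of smaller changes was not tested, and the median log2 fold change of the members was 0.94. Of the members changed more than 4-fold, Mx1, Cmpk2, Trim30d, Slfn8 and Ddx60 were called, and Ifi44, Rsad2 and Trim30a were not. Libraries of a group differed by more than sampling noise (chi-square per gene 7.10 to 28.7), and p-values measure the spread between these mice. Shared sequence was counted in GENCODE vM21 transcripts as stretches of 100 bases. All 50 members are named, with pathway genes that were called, at 0 or central to the pathway, and called markers, and 1 further gene of this rule is not reported here. The members and lists were chosen with earlier results of these data known.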

Additional observations from a re-analysis of the deposited data

How the results depend on the processing

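The count of 29 members called became 0 when tested against a log2 fold change of 1 (17 at an unadjusted p under 0.05), and ranged from 3 (without scramble replicate 3, where 40 had an unadjusted p under 0.05) to 36 (without knockdown replicate 3) when 1 library was left out, with 15 without knockdown replicate 2 and 17 without scramble replicate 2. The 12 members past the fold limit became 20 with DESeq2, 29 with spike-in library sizes and 21 with voom, and 2 to 23 with 1 library left out. The 5 pathway genes called became 8 with DESeq2, 11 with spike-in library sizes and 0 to 9 with 1 library left out. Spike-in library sizes, which shift the median of all genes by 0.20, moved the median log2 fold change of the Ifitm family with Bst2 from 0.50 to 0.70 and that of the nuclear factors from 0.64 to 0.85, and turned Ifitm1 from -0.06 to 0.14. With 1 library left out, Ifitm1 ranged from -0.18 (without knockdown replicate 2) to 0.037 (without scramble replicate 3, and 0.013 without knockdown replicate 1), and Ifi205 from -0.25 (without knockdown replicate 2) to 0.51 (without knockdown replicate 3). Hnf1aos1, not called at -0.74, was called with DESeq2 (-0.75), no filter (-0.74), voom (-0.77) and the replicate block (-0.77), and ranged from -1.01 (called, without knockdown replicate 3) to -0.60 with 1 library left out. The causes of these changes were not tested, beyond the smaller number of libraries in the fits that leave 1 out. In all 20 of the 29 members were called in every alternative with all 6 libraries except the test against a log2 fold change of 1, and all called members were higher in every fit. The other 9 were Ifi203, Ifi204, Ifi209, Samhd1 and Slfn5, which lost their call with voom and some other fits, and Cmpk2, Trim30d, Ddx60 and Ly6e, which lost theirs without a filter.

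The replicate numbers do not pair the samples: correlations of same-numbered deviations from the group means were -0.02, 0.02 and 0.003, and not every library correlated best with its own number. With the replicate block 30 members were called, 25 of them shared with the 29 (without Ifi203, Ifi204, Ifi209 and Samhd1, at adjusted p = 0.0562, 0.0554, 0.0567 and 0.0562), 18 past the fold limit, and 7 pathway genes.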
